A study of Mus musculus with 8 samples.

Results

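Imprinted genes are transcribed mainly from the chromosome inherited from 1 parent. The 40 described here are autosomal mouse genes, taken as members of imprinted regions whose expression is known to vary between embryonic stem (ES) cell clones, and each was found by its symbol in the count tables, among 55291 genes in all. They lie in 21 imprinted regions. By textbook knowledge, 15 are expressed from the maternal and 24 from the paternal chromosome where they are imprinted, and Gnas is a complex locus with transcripts of both kinds. The rule itself used no measured value, but the genes were chosen with earlier results of these data known.

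The libraries were 8 in number, and they came from mouse ES cells of 2 genotypes, DHX35-dTAG and GPATCH1-dTAG, in which the helicase DHX35 or its partner GPATCH1 carries a degron tag that the compound dTAG-13 uses to bring about destruction of the protein. Each genotype was kept for 4 h in the solvent DMSO or in 200 nM dTAG-13, with 2 libraries for each of these 4 groups. The labels name the parental line of every library as E14, whereas the growth protocol describes R1 cells, and it lists serum, LIF and the kinase inhibitors PD0325901 and CHIR99021, which all groups share. An untagged line was not among the libraries analysed, the lines were grown from picked colonies whose clone is not given, and the labels do not say whether replicates were separate cultures, so genotype cannot be told apart from clone or culture, and p-values measure only the spread between these libraries.

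At an imprinted region, a stretch of DNA known as the imprinting control region is methylated on 1 parental chromosome only, a state set in the germ line and kept in the early embryo by factors such as ZFP57, TRIM28 and DNMT1. The methylated and unmethylated copies direct different neighbouring genes, often through a long noncoding RNA that silences genes around it or through an insulator bound by CTCF. Many of the products regulate growth of the fetus and placenta, and cultured ES cells are known to lose or gain this methylation at individual regions. Counts of reads do not tell the parental copies apart, and in RNA from whole cultures a lower fraction of expressing cells cannot be told apart from less RNA per cell.

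Total counts per library were between 12014203 and 14994173, and the 40 genes together took 0.346% to 0.461% of them. The first DMSO library of DHX35-dTAG cells, called the library that stood apart in what follows, differed from all others, with a mean correlation of 0.976 with the other libraries, against 0.988 to 0.990 for the rest, and with 0.426% of its counts on small nuclear and nucleolar RNAs, against 0.131% to 0.157%, and 0.272% on mitochondrial mRNAs, against 0.758% to 1.13%. The genes Gm23935 and CT010467.1 took 1.27% to 20.9% of the counts of a library. The ES cell label held in every library: the 10 ES markers summed to 5291 to 5642 CPM (counts scaled to a common library size by the TMM method), while a list of 8 fibroblast markers summed to 8.14 to 12.3 CPM, and Postn and Lum were at 0 in all libraries. Gpatch1 mRNA was at 6.90 to 7.31 CPM in the GPATCH1-dTAG libraries and 23.2 to 25.6 CPM in the DHX35-dTAG libraries, and Dhx35 mRNA at 58.1 to 64.9 and 72.3 to 84.8 CPM. Since dTAG-13 acts on protein, the counts hold no check of the depletion itself.

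Most of the imprinted genes were expressed. A mean level of at least 100 CPM was reached by 10 of them, 15 were between 10 and 100 CPM, 9 were between 1 and 10 CPM and 6 were below 1 CPM. Per kb of exon (GENCODE M21), Mest, which encodes a protein with a hydrolase fold, had the highest mean level, 61.0 CPM per kb with a range over the 8 libraries of 52.7 to 64.9. Next came Peg10, a gene derived from a retrotransposon and needed in the placenta, at 45.6 (27.7 to 57.5) CPM per kb, and Impact, a regulator of the translational stress response, at 44.7 (33.9 to 48.3) CPM per kb. At the other end, Rasgrf1, a Ras exchange factor, was at 0.0048 (0 to 0.013) CPM per kb. When the genes were ordered by this level, the ranges of 35 of the 39 neighbouring pairs overlapped. The exceptions were Meg3 over Mirg, Peg3 over H19, Commd1 over Grb10, and Herc3 over Ndn.

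The lines were compared across both treatments, with 4 libraries each. H19, Igf2, Peg10 and Plagl1 had higher levels in GPATCH1-dTAG cells, and no imprinted gene was called lower by edgeR on all 8 libraries with its expression filter; Magel2 and Peg12 were called lower by limma-voom with sample quality weights and by edgeR without the library that stood apart. Of the 40 genes, 38 passed the expression filter and 4 (10.5%) had an adjusted p under 0.05 in the quasi-likelihood test of edgeR, with p adjusted by the Benjamini-Hochberg method for 16371 genes, against 129 genes or 0.788% of all genes tested. Counted by direction, 4 of 38 were higher in GPATCH1-dTAG cells, where the background was 0.336%, and 0 were lower, where it was 0.452%; at an unadjusted p under 0.05, 11 (background 6.44%) were higher and 6 (background 8.88%) lower. Igf2 and Zim1 passed the filter only through the GPATCH1-dTAG libraries and Magel2 only through the DHX35-dTAG libraries, so for them some difference follows from the filter. Among the 35 imprinted genes that passed it within each line, H19, Peg10 and Plagl1 (8.57%) were called, beside 0.771% of the 15305 such genes.

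These calls depended on single libraries. Leaving out any 1 of the 4 GPATCH1-dTAG libraries left 0 imprinted genes past the threshold, beside 0.156% and 0.191% of all genes for those in DMSO and 0.307% and 0.219% for those in dTAG-13, with adjusted p for H19 of 0.053 to 0.086, while its log2 difference remained between 0.96 and 1.02. Without the second DMSO library of DHX35-dTAG cells, H19 and Peg10 were called, beside 0.961% of all genes, and without either DHX35-dTAG library in dTAG-13, H19 alone, beside 0.236% and 0.31%. In contrast, leaving out the library that stood apart gave 9 imprinted genes of 39 tested (H19, Igf2, Magel2, Peg12, Peg10, Gnas, Plagl1, Igf2r and Grb10), with 5.95% of 17037 genes called. The same 9 were called when limma-voom with sample quality weights gave that library a weight of 0.14, with 4.62% of all genes called. Among these 9, Igf2 and Magel2 passed the filter on all 8 libraries only through the line in which they were higher.

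For each gene below, CPM values are given in the order DMSO replicates 1 and 2, then dTAG-13 replicates 1 and 2. H19 is a maternally expressed long noncoding RNA, and Igf2, its paternally expressed neighbour, encodes a fetal growth factor; both use shared enhancers, and an insulator between them is their control region. H19 (chr7:142575529-142578143 on GRCm38, minus strand) had 7.39, 6.81, 10.8 and 6.19 CPM in DHX35-dTAG cells and 14.8, 15.2, 15.6 and 16.1 CPM in GPATCH1-dTAG cells. The line means were 7.79 ± 2.0 and 15.4 ± 0.6 CPM (SD, n = 4 each), and the ranges did not overlap. The log2 difference was 0.99 (standard error 0.15, or 1.98-fold; adjusted p = 0.016 from edgeR).

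Igf2 (chr7:142650766-142666816, minus strand, 72.6 kb from H19) was close to the limit of detection. Its counts were 1, 1, 4 and 0 in DHX35-dTAG cells and 10, 7, 19 and 19 in GPATCH1-dTAG cells, or at most 0.342 CPM and at least 0.619 CPM. With 6 and 55 counts in all, the ratio of pooled levels was 8.41, with an exact 95% interval of 3.63 to 23.9 that covers counting error only. The fit gave 2.89 on the log2 scale (standard error 0.51; adjusted p = 0.035 from edgeR), which rests on these counts, and whose size depends on the prior count. Its size also moved with single libraries, to 3.84 without replicate 1 and 2.39 without replicate 2 of DHX35-dTAG cells in dTAG-13. H19 also holds the gene of miR-675, a microRNA processed from its first exon. Mir675 itself had 0 counts in all libraries, and 3 counts, which 0 allows for, would be up to 0.265 CPM in a library; the mRNA-type library used here is not made for mature microRNAs. Its mature forms in RefSeq (GRCm38.p6, chr7:142577112-142577133 and chr7:142577078-142577099, minus strand) are shown because they are the short RNA products of the gene that differed, with the seed (bases 2 to 8) in capitals.
mmu-miR-675-5p: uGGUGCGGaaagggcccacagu
mmu-miR-675-3p: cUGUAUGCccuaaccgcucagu

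For Igf2, the RefSeq table holds several start sites, and the window of 300 bases with the most CpG sites is shown as the promoter of a called gene (chr7:142658755-142659054, minus strand, 250 bases before the start and 50 after it). Capitals mark CpG, the dinucleotide at which imprints are written; this window holds 24.
Igf2 promoter: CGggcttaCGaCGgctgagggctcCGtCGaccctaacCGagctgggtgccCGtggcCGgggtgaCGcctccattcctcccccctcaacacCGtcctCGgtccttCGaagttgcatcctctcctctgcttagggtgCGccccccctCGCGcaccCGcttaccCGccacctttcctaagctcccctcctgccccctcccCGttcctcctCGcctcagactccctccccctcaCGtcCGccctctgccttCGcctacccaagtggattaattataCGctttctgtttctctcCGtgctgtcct

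Peg10 and Sgce are paternally expressed neighbours on chromosome 6 whose starts face away from each other with a gap of 99 bases between the annotated genes. Peg10 (chr6:4747306-4760517, plus strand) had 185, 249, 266 and 266 CPM in DHX35-dTAG cells and 359, 360.1, 364 and 383 CPM in GPATCH1-dTAG cells. The lowest value was that of the library that stood apart, and without it the 3 DHX35-dTAG values still lay below all 4 GPATCH1-dTAG values. The log2 difference was 0.61 (standard error 0.09, or 1.53-fold; adjusted p = 0.019 from edgeR). Sgce, which encodes epsilon-sarcoglycan, a protein of the cell membrane, had 2.44, 3.60, 2.39 and 3.71 CPM and 4.79, 5.30, 4.03 and 4.32 CPM in the same order of lines. Its ranges did not overlap either, but at 0.59 on the log2 scale (standard error 0.18) its difference was not called (adjusted p = 0.19, edgeR).

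Plagl1 encodes a zinc finger transcription factor that restrains growth and acts on other imprinted genes, Igf2 and H19 among them. Plagl1 (chr10:13060504-13131694, plus strand) had 187, 196, 194 and 215 CPM in DHX35-dTAG cells and 265, 263, 235 and 254 CPM in GPATCH1-dTAG cells, with no overlap. Its log2 difference was 0.36 (standard error 0.07, or 1.28-fold; adjusted p = 0.044 from edgeR). Its promoter window (RefSeq, GRCm38.p6, chr10:13090582-13090881, plus strand) holds 26 CpG and 1 match to TGCCGC or its complement GCGGCA, the letters that ZFP57 reads when the CpG is methylated, and is shown as that of the other called gene with an entry.
Plagl1 promoter: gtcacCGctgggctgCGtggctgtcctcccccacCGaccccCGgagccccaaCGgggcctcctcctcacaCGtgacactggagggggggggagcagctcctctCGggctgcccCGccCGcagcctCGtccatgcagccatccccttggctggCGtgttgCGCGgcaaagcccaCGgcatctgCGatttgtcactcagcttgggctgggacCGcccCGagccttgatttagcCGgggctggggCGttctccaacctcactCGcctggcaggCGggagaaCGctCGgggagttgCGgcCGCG

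Over the imprinted genes with an entry, the windows were richer in CpG than promoters at large. The median was 14.5 CpG over 50 windows of 33 imprinted genes, against 7 over 32851 windows of all genes. A TGCCGC match on either strand was in 14 of the 50 windows (28.0%), against 11.6% of all windows of this length. The match itself contains a CpG, and the shares were not adjusted for the CpG content of the windows. The windows of H19, Cdkn1c, Peg10, Sgce, Impact, Peg13 and Trappc9 were not examined here.

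**Figure D1:**
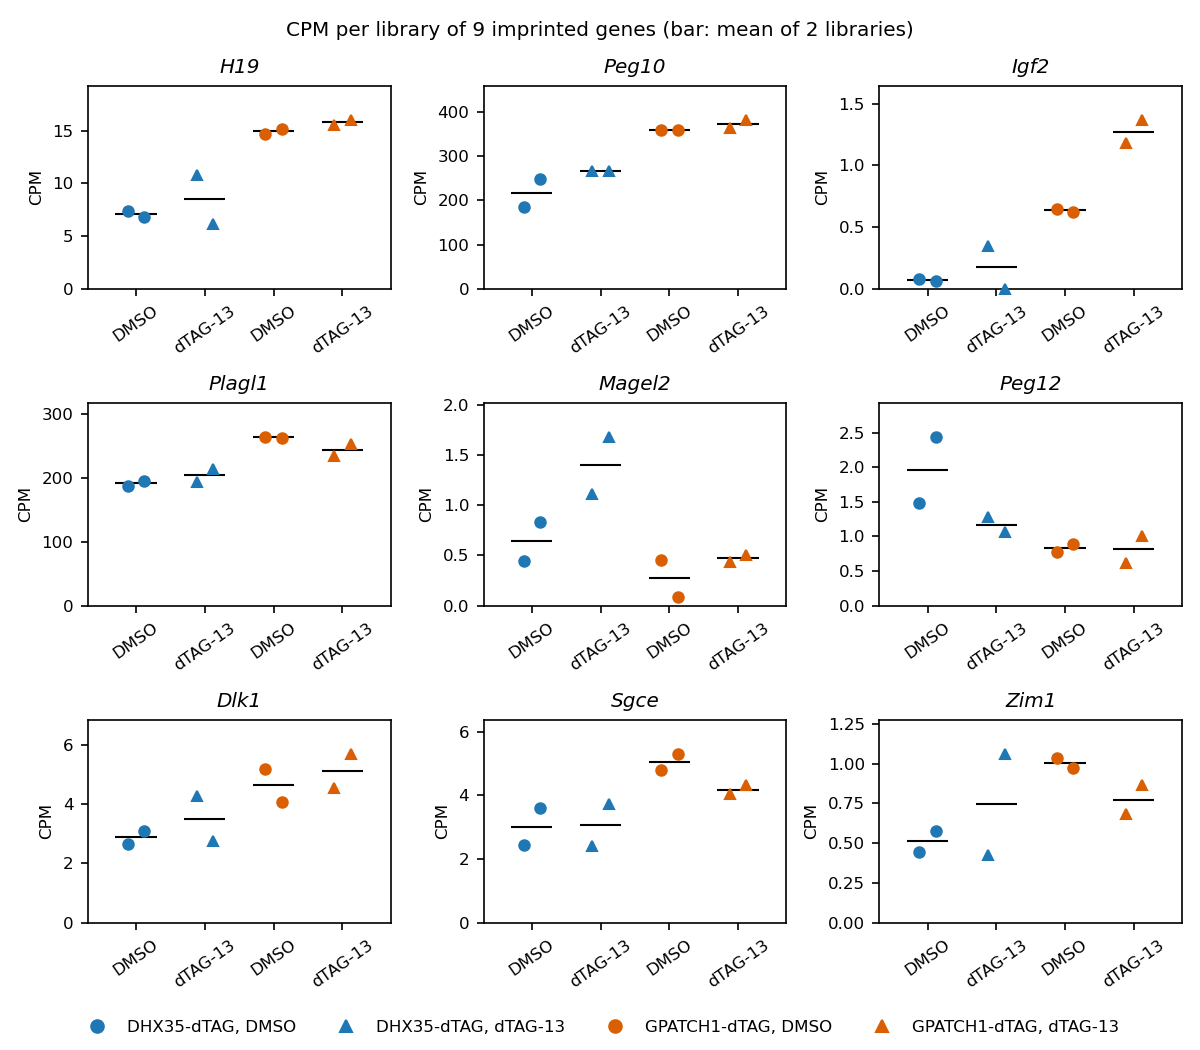
CPM in each library (points; black bars are means of 2 libraries) of the 4 genes called between lines and the 5 others with the largest log2 difference; blue is DHX35-dTAG, orange GPATCH1-dTAG, circles DMSO and triangles dTAG-13. The H19 points of GPATCH1-dTAG cells sit between 14.8 and 16.1 CPM and those of DHX35-dTAG cells between 6.19 and 10.8 CPM, while Magel2 and Peg12 are lower in most GPATCH1-dTAG libraries.

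The 5 other genes with the largest difference between lines include Sgce above. None of the 5 was called by edgeR on all 8 libraries with the expression filter. Limma-voom with weights called Magel2 and Peg12, where 4.62% of all genes were called. With no filter, edgeR called Magel2, Dlk1 and Sgce, among 920 genes called in all, against 129 with the filter. Magel2 and Peg12 are intronless paternal genes of the Snrpn region, which in humans is that of Prader-Willi syndrome; Magel2 encodes a MAGE protein that aids protein recycling from endosomes, and Peg12 a relative of the FRAT regulators of GSK3. Magel2 was at 0.443 to 1.68 CPM in DHX35-dTAG cells and 0.0884 to 0.504 CPM in GPATCH1-dTAG cells, and these ranges overlapped. Its log2 difference was -1.39 (standard error 0.39; adjusted p = 0.16, edgeR). Peg12 had 1.48, 2.44, 1.28 and 1.06 CPM in DHX35-dTAG cells and 0.777, 0.884, 0.620 and 1.01 CPM in GPATCH1-dTAG cells, so the lines did not overlap. Its log2 difference was -0.93 (standard error 0.29; adjusted p = 0.19, edgeR). Without the library that stood apart, these were -1.52 (adjusted p = 0.022, edgeR) and -1.08 (adjusted p = 0.034, edgeR), and both were called. Their promoter windows (RefSeq, GRCm38.p6, chr7:62376729-62377028, plus strand, and chr7:62464461-62464760, minus strand) are shown as those of the neighbours with the lowest log2 differences, and they hold 10 and 12 CpG. The windows of Grb10 and Gnas, which edgeR did not call with all 8 libraries, hold 45 and 40.
Magel2 promoter: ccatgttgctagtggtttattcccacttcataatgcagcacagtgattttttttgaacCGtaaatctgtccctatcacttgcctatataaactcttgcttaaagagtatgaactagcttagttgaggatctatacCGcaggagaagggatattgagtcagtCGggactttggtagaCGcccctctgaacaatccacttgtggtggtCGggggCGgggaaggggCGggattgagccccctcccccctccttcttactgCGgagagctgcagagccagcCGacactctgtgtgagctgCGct
Peg12 promoter: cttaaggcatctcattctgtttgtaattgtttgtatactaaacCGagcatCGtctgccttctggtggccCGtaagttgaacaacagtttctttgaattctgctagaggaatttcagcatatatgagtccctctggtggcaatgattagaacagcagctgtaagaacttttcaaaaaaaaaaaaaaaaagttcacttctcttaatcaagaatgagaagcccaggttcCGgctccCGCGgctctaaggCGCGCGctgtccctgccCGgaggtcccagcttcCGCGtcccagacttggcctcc

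The other genes of the Snrpn region had overlapping lines. Snrpn, which encodes the Sm protein SmN of spliceosomal particles, had 88.8, 77.3, 65.9 and 73.8 CPM and 67.04, 64.7, 67.3 and 71.4 CPM, and its highest value was in the library that stood apart. Ndn, another MAGE gene, had 3.40, 3.54, 2.91 and 3.10 CPM and 3.17, 3.01, 3.22 and 3.53 CPM. The maternal gene of the region in neurons, the ubiquitin ligase gene Ube3a, had 167, 212, 160.4 and 208 CPM and 193, 204, 192 and 209 CPM.

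In the region of Kcnq1ot1, a paternal long RNA that silences its neighbours on the same chromosome, none of Kcnq1ot1, Cdkn1c and Phlda2 was called across treatments by edgeR on all 8 libraries with its expression filter. With no filter, Kcnq1ot1 was called, among 920 genes called in all. Kcnq1ot1 had 518, 763, 719.95 and 741 CPM in DHX35-dTAG cells and 778, 774, 767 and 834 CPM in GPATCH1-dTAG cells. The highest DHX35-dTAG value lay just below the lowest GPATCH1-dTAG value, and the lowest of all was again in the library that stood apart. It overlaps Kcnq1 on the other strand, so its counts are uncertain where strand was not used. Cdkn1c, which encodes a cyclin-dependent kinase inhibitor that limits growth, had 2.73, 1.35, 1.62 and 0.973 CPM and 1.23, 1.77, 1.86 and 1.08 CPM. Phlda2, a maternal gene that restrains placental growth, had 4.51, 3.34, 4.19 and 3.80 CPM and 3.62, 4.51, 3.90 and 4.32 CPM, and the lines overlapped for both genes.

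The Dlk1-Meg3 region is the one best known for silencing in mouse ES and induced pluripotent cells, where loss of Meg3 marks poor developmental potential. Its maternal noncoding RNAs were well expressed in every library. Meg3 had 353, 368, 362 and 349.9 CPM in DHX35-dTAG cells and 375, 372, 340.2 and 344 CPM in GPATCH1-dTAG cells. Rian, the host of small nucleolar RNAs, had 494, 700.1, 607 and 673 CPM and 644, 677, 647 and 709 CPM. Mirg, a host of microRNAs, had 107, 103, 96.9 and 103 CPM and 91.8, 95.6, 99.3 and 98.5 CPM. Levels of all 3 overlapped between lines. From Meg3 to Mirg, 66 microRNA genes and 23 small nucleolar RNA genes are listed, of which 54 and 9 had counts and 33 and 6 were tested. Of either kind, 0 were called between lines by edgeR, DESeq2 or limma-voom with weights, where edgeR called 0.788% of all genes. In edgeR, 1 (3.03%) and 0 had an unadjusted p under 0.05, against 15.3% of all genes. Dlk1, the paternal gene of the region and a Notch-like inhibitor of differentiation, had 2.66, 3.09, 4.27 and 2.74 CPM and 5.18, 4.07, 4.52 and 5.69 CPM. Its ranges overlapped, and the log2 difference was 0.61 (standard error 0.18; adjusted p = 0.17, edgeR).

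None of Peg3, Usp29 and Zim1 was called between lines by edgeR, and Peg3 had an unadjusted p of 0.031. Peg3 itself, a paternal zinc finger gene whose start lies 147 bases from that of Usp29, had 89.5, 93.1, 92.2 and 91.4 CPM in DHX35-dTAG cells and 100.04, 104, 95.98 and 102 CPM in GPATCH1-dTAG cells, which did not overlap. Usp29, which encodes a ubiquitin protease, had 1.48, 2.19, 2.39 and 2.03 CPM and 1.68, 2.48, 1.30 and 2.95 CPM. Zim1, a maternal zinc finger gene, was at 0.427 to 1.06 CPM and 0.682 to 1.04 CPM, and differed by 0.51 on the log2 scale (standard error 0.34; adjusted p = 0.50, edgeR).

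Igf2r, Grb10 and Gnas, each at a region of its own, were not called between lines by edgeR on all 8 libraries, but were by limma-voom with weights and by edgeR without the library that stood apart. Igf2r, the maternal receptor that clears the Igf2 protein, had 81.7, 83.2, 84.8 and 79.7 CPM in DHX35-dTAG cells and 92.5, 94.2, 98.2 and 99.1 CPM in GPATCH1-dTAG cells. The adapter gene Grb10, whose product restrains insulin signalling, had 13.2, 12.7, 14.02 and 13.1 CPM and 15.4, 17.2, 16.3 and 17.3 CPM. Gnas, which encodes the stimulatory G protein subunit and related products, had 131, 116, 128 and 117 CPM and 139, 142, 145 and 140.2 CPM. In all 3 the lines did not overlap, and the adjusted p values from edgeR were 0.11, 0.11 and 0.17. Airn, the paternal RNA that silences Igf2r and runs across it on the other strand, was at 0.591 to 1.15 CPM and 0.936 to 1.04 CPM.

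The genes at the remaining regions are often found as pairs of a host gene and a gene within it, and where such a pair overlaps the counts of each are uncertain. Mest had 208, 251, 256 and 246 CPM in DHX35-dTAG cells and 242, 245, 227 and 249.7 CPM in GPATCH1-dTAG cells. Copg2, a coatomer subunit gene that meets it at the end, had 52.2, 46.7, 45.6 and 44.8 CPM and 48.3, 45.7, 48.1 and 48.2 CPM. Both pairs of ranges overlapped. Zrsr1, a retrogene related to the splicing factor U2AF, had 45.4, 34.8, 37.5 and 40.3 CPM and 34.4, 37.6, 29.99 and 31.3 CPM. Its host Commd1, a regulator of copper and NF-kB, had 21.6, 14.8, 12.99 and 15.1 CPM and 12.2, 12.1, 12.3 and 13.3 CPM. For Zrsr1 and Commd1 the highest value was in the library that stood apart, and the lines overlapped.

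Mcts2 is a retrogene inside H13, the gene of the signal peptide peptidase. Mcts2 had 16.4, 22.4, 25.7 and 23.5 CPM in DHX35-dTAG cells and 21.2, 19.3, 17.7 and 21.3 CPM in GPATCH1-dTAG cells. H13 had 32.9, 33.2, 32.7 and 34.05 CPM and 37.4, 38.1, 33.2 and 33.1 CPM, and the ranges of both genes overlapped. Peg13 is a long noncoding RNA inside Trappc9, the gene of a vesicle tethering subunit. Peg13 had 8.20, 7.58, 10.3 and 6.72 CPM and 6.73, 6.45, 5.27 and 6.70 CPM. Trappc9 had 33.6, 33.1, 31.3 and 31.8 CPM and 30.3, 27.1, 28.8 and 28.5 CPM, and its lines did not overlap. Herc3, a ubiquitin ligase gene that holds Nap1l5 in an intron, had 9.83, 10.7, 11.2 and 9.82 CPM and 10.7, 8.84, 9.60 and 11.96 CPM.

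The single genes were alike in showing overlapping lines. Nnat, which encodes the membrane protein neuronatin, had 5.47, 6.17, 7.01 and 5.66 CPM in DHX35-dTAG cells and 7.64, 6.54, 8.12 and 7.35 CPM in GPATCH1-dTAG cells. Impact had 174, 240.3, 207 and 241 CPM and 243, 246, 235 and 248 CPM. Slc38a4, an amino acid transporter gene known from the placenta, had 33.9, 57.1, 52.1 and 56.4 CPM and 52.1, 54.4, 51.7 and 53.4 CPM. For these 3 the library that stood apart was the lowest of all. Inpp5f, a phosphoinositide phosphatase gene, had 29.7, 31.3, 32.2 and 31.7 CPM and 28.3, 30.5, 29.6 and 29.6 CPM. Zdbf2, a zinc finger gene, had 268, 288, 252 and 296 CPM and 280.1, 288, 266 and 281 CPM. Nap1l5 (at most 0.964 CPM) and Rasgrf1 (at most 0.144 CPM) failed the filter, and two-sided exact permutation tests over the 8 libraries, which can reach 0.029 at the least, gave p = 0.29 and p = 0.66.

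Across treatments, the log2 difference between lines was above 0 for 24 of the 38 tested, with a median of 0.065, against 47.9% of all genes and a median of -0.0092. It was above 0 for 9 of the 15 maternal genes and 14 of the 22 paternal genes tested, with medians of 0.042 and 0.060. In DMSO alone, 25 of the 38 were above 0 (median 0.115), and in dTAG-13 alone 21 of the 38 (median 0.046); of the 22 paternal genes, 15 were above 0 in DMSO and 10 in dTAG-13, with medians of 0.155 and -0.0062. An unadjusted p under 0.05 was found for 17 of the 38 (44.7%), against 15.3% of all genes (edgeR). The 4 values of each line did not overlap for 12 of the 38 (31.6%), against 11.6% of all genes: 10 were higher in GPATCH1-dTAG cells (background 5.63%) and 2, Peg12 and Trappc9, were lower (background 6.0%). These counts are over genes that passed the filter and are descriptions.

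The library that stood apart was the lowest of the 8 for 12 of the 40 imprinted genes (30.0%) and the highest for 7 (17.5%), compared with 29.5% and 30.3% of all genes tested. Nearby genes gave no other calls at the called regions by edgeR or DESeq2. Within 1 Mb, the median log2 difference was -0.046 over 19 other genes around H19 and Igf2. It was 0.130 over 8 around Peg10 and 0.039 over 10 around Plagl1. EdgeR and DESeq2 called 0 of these genes, and 5 (13.5%) had an unadjusted p under 0.05 in edgeR, near the 15.3% of all genes. Limma-voom with sample quality weights called 1, the antisense gene Igf2os, which runs across part of Igf2 on the other strand. Its levels were 0.517, 0.321, 0.0855 and 0.354 CPM in DHX35-dTAG cells and 0.841, 0.619, 1.12 and 1.01 CPM in GPATCH1-dTAG cells, without overlap (log2 difference 1.45; adjusted p = 0.16 from edgeR, and 0.026 from limma with weights), and reads of Igf2 and Igf2os cannot be told apart where strand was not used.

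Markers of other cell types were set beside these differences, since H19, Igf2 and Peg10 are strongly expressed in extraembryonic tissue. The 6 trophoblast markers summed to 52.7 to 64.5 CPM in DHX35-dTAG cells and 57.8 to 62.7 CPM in GPATCH1-dTAG cells. Of the 4 tested, Gata3 was higher in GPATCH1-dTAG cells, at 7.25 to 8.37 CPM against 2.96 to 4.62 CPM (adjusted p = 0.018, edgeR), and Cdx2, Tfap2c and Eomes were not called by edgeR. Tfap2c, which limma-voom with weights also called, stood the other way, at 23.9 to 26.6 CPM against 28.7 to 36.5 CPM. Elf5 was at 0 to 0.0884 CPM in all libraries and Hand1 at 0 to 0.496 CPM. The 6 primitive endoderm markers summed to 5.54 to 6.67 CPM in DHX35-dTAG cells and 6.21 to 7.71 CPM in GPATCH1-dTAG cells. Of the 4 tested, 0 were called by edgeR, DESeq2 or limma-voom with weights, and 1, Gata4, had an unadjusted p under 0.05 in edgeR. Log2 differences were 0.64 for Gata4, 0.16 for Gata6, 0.078 for Pdgfra and -0.49 for Sox7. Among the ES markers, Utf1 was lower in GPATCH1-dTAG cells, at 179 to 185 CPM against 218 to 289 CPM (adjusted p = 0.031, edgeR). Limma-voom with weights also called Sox2 and Esrrb, and 5 of the 10 ES markers (Pou5f1, Esrrb, Klf4, Dppa4 and Utf1) had an unadjusted p under 0.05 in edgeR, against 15.3% of all genes, with a log2 difference of 0.23 for Klf4 and of -0.49 to -0.13 for the others. Of the fibroblast, mesoderm and neural markers tested (3, 2 and 3), 0 were called by edgeR, DESeq2 or limma-voom with weights, and 1 of each list (Thy1, Mixl1 and Sox1) had an unadjusted p under 0.05, with log2 differences of -0.65, 0.65 and 0.25. The 4 mesoderm markers summed to 2.83 to 3.86 CPM in DHX35-dTAG cells and 3.04 to 3.88 CPM in GPATCH1-dTAG cells, and the 4 neural markers to 78.5 to 87.2 and 84.6 to 89.8 CPM. The part of these markers in the differences of the imprinted genes was not tested.

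The treatments were then used as separate samples, since the line difference in DMSO and that in dTAG-13 share no library. Both come from the same lines, so agreement between them does not replicate a line difference in other clones. With 2 libraries against 2, 0 imprinted genes were called in either (edgeR; 0.0916% of all genes were called in each), while 11 and 10 of the 38 (28.9% and 26.3%) had an unadjusted p under 0.05, against 12.9% and 8.47% of all genes. The log2 differences in DMSO and dTAG-13 were 1.08 and 0.89 for H19, 3.05 and 2.80 for Igf2, 0.73 and 0.49 for Peg10, and 0.46 and 0.26 for Plagl1. These genes had been called on both treatments together, so a shared direction for them was largely fixed in advance. Over the 35 genes that passed the filter within each line, the sign was shared by 23 (65.7%), against 59.2% of all such genes. Over these 35 genes, which share the libraries and are not independent, both sets of differences had a Pearson correlation of 0.79 and a Spearman correlation of 0.68; over all genes that passed within each line they were 0.15 and 0.25.

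Without the library that stood apart, H19, Peg10 and Plagl1 were called in DMSO (edgeR; 0.71% of all genes). In that case the DHX35-dTAG group in DMSO was 1 library, assumed to vary like the other groups. In dTAG-13, whose own libraries were the same but whose fit had another estimate of the spread and 17037 genes tested in place of 16371, 7 imprinted genes were called (H19, Igf2, Peg10, Gnas, Plagl1, Igf2r and Zrsr1), beside 3.87% of all genes. The same 7 were called in dTAG-13 without the second DMSO library of DHX35-dTAG cells, beside 3.79% of all genes. Leaving out either library of that group leaves 1, so the spread between them is absent from both fits. The fits are therefore alike by design, and the part of the library that stood apart in this gain was not tested. Without that second library, 14 imprinted genes and 34.3% of all genes were called in DMSO, where the group then held only the library that stood apart.

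**Figure D2:**
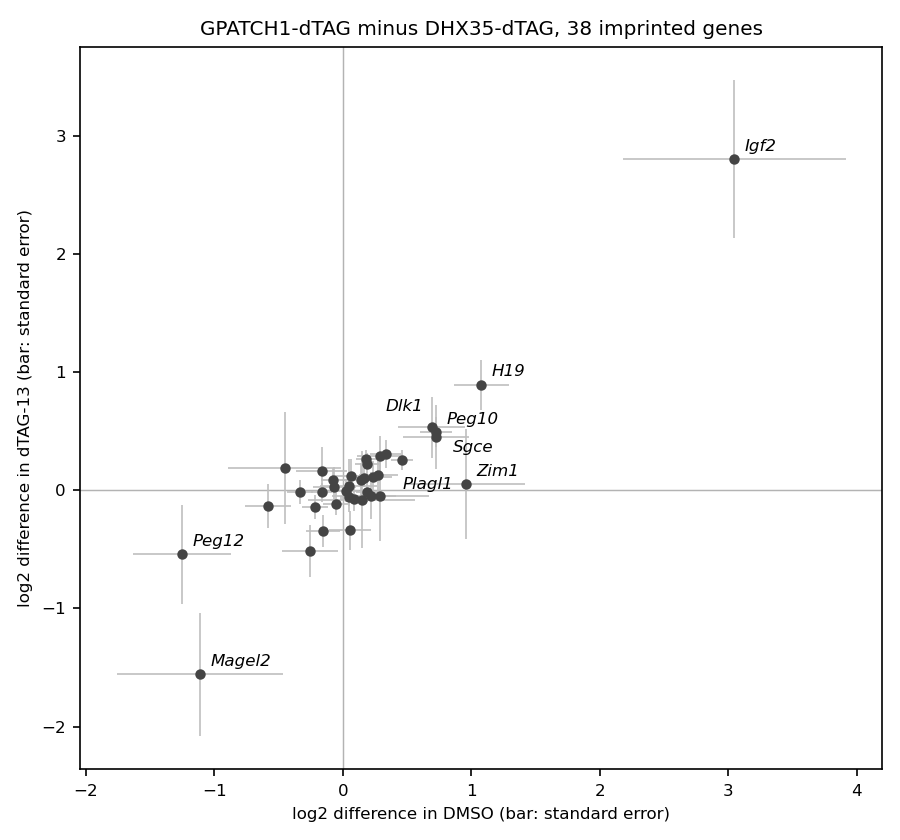
Log2 difference between lines (GPATCH1-dTAG minus DHX35-dTAG) in DMSO on the x axis and in dTAG-13 on the y axis for the 38 imprinted genes tested, with bars of 1 standard error; the 9 named genes are labelled. H19, Igf2, Peg10, Plagl1, Dlk1, Sgce and Zim1 lie in the upper right and Magel2 and Peg12 in the lower left, while most of the others lie within 0.5 of 0 on both axes.

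The response to 4 h of dTAG-13 was tested last. In DHX35-dTAG cells, in GPATCH1-dTAG cells, across both lines and for the difference between the responses, 0 imprinted genes and 0.0% of all genes had an adjusted p under 0.05 (edgeR), and DESeq2 also called 0 imprinted genes in each. At an unadjusted p under 0.05 there were 2 imprinted genes in DHX35-dTAG cells, 0 in GPATCH1-dTAG cells, 2 across both lines and 0 for the difference, beside 882, 486, 587 and 640 of all genes.

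The genes with the lowest p were as follows. In DHX35-dTAG cells, the log2 fold change was -0.25 for Snrpn (standard error 0.10), 0.29 for Peg10 (standard error 0.13) and 1.09 for Magel2 (standard error 0.50), all with an adjusted p of 0.71 (edgeR). For Snrpn and Peg10, the library that stood apart held the highest and the lowest level of all. In GPATCH1-dTAG cells, it was -0.19 for H13 (standard error 0.09), 0.99 for Igf2 (standard error 0.50) and -0.23 for Zrsr1 (standard error 0.13), with an adjusted p of 1.0 (edgeR). Across both lines, Igf2 had 1.02 (standard error 0.44), Magel2 0.94 (standard error 0.39) and Peg10 0.17 (standard error 0.09), with an adjusted p of 0.96 (edgeR).

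The machinery of imprinting and further genes of the same regions were examined as lists. All 32 regulators of imprinting were tested between the lines and 0 were called by edgeR or DESeq2, with a median log2 difference of 0.033. An unadjusted p under 0.05 in edgeR was found for 5 (15.6%), near the 15.3% of all genes. Limma-voom with weights called Zfp57 and Cbx5, where 4.62% of all genes were called. Their log2 differences in edgeR were -0.15 and 0.18. Of 43 further imprinted genes in the same regions, 41 had an entry and 25 were tested, with a median of -0.030. EdgeR and DESeq2 called 0 of these, and limma-voom with weights called 2 (Zfp264 and Adam23), beside its 4.62% of all genes. In edgeR, 4 (16.0%) had an unadjusted p under 0.05, again near the 15.3% of all genes.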

How the data were processed

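Cells, treatment and libraries are those of the opening description, and groups and replicate numbers were taken from the sample labels. The authors removed ribosomal RNA, added human DLD-1 RNA as a spike-in, made stranded libraries, trimmed reads (Trim Galore 0.6.6, checked with FastQC 0.11.9) and aligned them with STAR 2.7.5c to mm10 and hg19; DESeq2 1.26.0 is also named in the submitters' processing notes. The deposited values are raw counts of reads per gene, 1 table per library. The counting program, its annotation and its strand setting are not given in the sources used here, so overlapping and antisense genes are uncertain. Spike-in reads and splice junctions were not used here.

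Tests on counts used edgeR 4.0.16 under R 4.3.3 (TMM, filterByExpr on the 4 groups, glmQLFit and glmQLFTest, Benjamini-Hochberg adjustment, threshold 0.05), the line difference across treatments with line and treatment as terms and the other comparisons with 1 term per group, with the spread of each gene estimated once from all 8 libraries. The filter, near 0.754 CPM, left 16371 genes. Common dispersion was 0.0151, a coefficient of variation of 12.3%. Standard errors are the log2 difference divided by the square root of F. Total counts were 12014203 to 14994173, of which 2 genes took 1.27% to 20.9%, so the depth left for other genes differed more than the totals. Alternatives were DESeq2 1.42.0, its size factors, other filters, a replicate block, limma 3.58.1 voom weights, the 2 most counted genes removed, fits to the compared libraries alone, and 1 library left out in turn. The method was tested on simulated data. Replicates were not duplicates: their chi-square per gene was 5.32 to 131.9, where 1 is sampling noise.

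Members and lists were chosen with earlier results of these data known. Genes with a mean of at least 1 CPM are given in every library, the others by range; log2 differences are given for genes called and the 5 others with the largest difference, and for dTAG-13 the 3 with the lowest p. Marker, list and neighbouring genes given by name with a value or a call were chosen after their values were seen, as were the adjusted p values of Igf2r, Grb10 and Gnas.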

Additional observations from a re-analysis of the deposited data

Results flagged for a closer look

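In each line, the 4 libraries of every gene with a mean of at least 1 CPM were examined for a single value whose gap to the nearest other was above Dixon's 95% limit for 4 samples as a share of the whole range. This was so for 2 of 68 combinations of gene and line, and chance alone flags about 1 in 20. Kcnq1ot1 had 833.9 CPM in the second dTAG-13 library of GPATCH1-dTAG cells, while the other 3 libraries of that line had 767 to 778 CPM. Copg2 had 45.7 CPM in the second DMSO library of that line, while the other 3 had 48.1 to 48.3 CPM. Neither gene was called in any comparison by edgeR on all 8 libraries with the expression filter, and neither value lay in the DHX35-dTAG library that stood apart.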

How the results depend on the processing

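H19, Igf2, Peg10 and Plagl1 had the same direction between lines under every alternative run in which they were tested, and no sign turned among the 5 other genes with the largest line difference or the 3 of each dTAG-13 effect. Imprinted genes called across treatments numbered 4, against 8 of 40 with no expression filter, 9 with limma-voom weights and 0 to 9 with 1 library left out; all genes called numbered 129, against 227 with DESeq2, 920 with no filter, 757 with limma-voom weights and 27 to 1013 with 1 library left out. With no filter, Kcnq1ot1, Dlk1, Magel2 and Sgce were called beside the 4. DESeq2 and at least 10 counts in every library called H19, Peg10 and Plagl1; DESeq2 gave Igf2 no adjusted p (log2 difference 3.01), and the second, which tested 34 imprinted genes, did not test it.

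In DMSO, imprinted genes called between lines numbered 0, against 3 with DESeq2 (H19, Peg10 and Plagl1), 6 with no filter and 0 to 14 with 1 library left out. All genes called there numbered 15, against 47 with DESeq2, 986 with no filter, 4 with at least 10 counts everywhere, 2 with only the 4 libraries compared and 4 to 5887 with 1 left out. In dTAG-13, imprinted genes called between lines numbered 0, against 3 with no filter, 3 with only the 4 libraries compared and 0 to 7 with 1 left out, and all genes called there numbered 15, against 48 with DESeq2, 158 with no filter, 4 with at least 10 counts, 342 with only the 4 libraries and 4 to 660 with 1 left out.

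For dTAG-13, imprinted genes called were 0, against 0 to 10 in DHX35-dTAG cells and 0 to 9 for the difference between responses with 1 library left out. All genes called were 0 in DHX35-dTAG cells, against 1 with DESeq2, 345 with no filter, 1 with only the 4 libraries and 0 to 4949 with 1 left out. They were 0 in GPATCH1-dTAG cells, against 21 with no filter, 127 with only the 4 libraries and 0 to 51 with 1 left out. Across both lines they were 0, against 4 with DESeq2, 80 with no filter, 9 with limma-voom weights and 0 to 8 with 1 left out. For the difference between responses they were 0, against 9 with DESeq2, 140 with no filter, 2 with the replicate block and 0 to 3592 with 1 left out. The highest of these, 14, 10 and 9 imprinted genes and 5887, 4949 and 3592 of all genes, came without the second DMSO library of DHX35-dTAG cells, which leaves only the library that stood apart in that group. The cause of the other changes was not tested.

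Replicate numbers do not pair the samples, since the correlations of replicate differences between groups were 0.04 to 0.23 and not all above 0.1. With the replicate block, the line difference gave 4 imprinted genes (H19, Igf2, Peg10 and Plagl1) and 151 of all genes. Depth limits genes with few counts, such as Igf2 with 0 to 19 counts in a library.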
